A study of Mus musculus with 50 samples.

Results

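The collagen genes were taken as every array probe with a platform gene symbol of the form Col, number, a, number and with values in the deposited table. Of 72 such probes, 11 had no values, and the remaining 61 probes represented 37 genes, against 30750 probes with values and 15311 named genes in all. The genes comprised 11 fibrillar collagens (21 probes), 8 basement membrane collagens (12 probes) and 18 other collagens (28 probes), the last holding fibril-associated, network-forming, beaded-filament and transmembrane types. Of the 61 probes, 38 had a value on every one of the 50 arrays, and none was measured on 70% of the arrays or fewer.

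Collagens are triple-helical proteins of the extracellular matrix, assembled from chains that are each encoded by a separate gene. Fibrillar chains form the fibres of connective tissue, collagen IV chains form the sheet under endothelium and epithelium, and fibril-associated chains decorate the surface of fibres. In the spleen, fibrillar collagens lie in the capsule, the trabeculae and the reticular fibre network made by fibroblastic reticular cells, and collagen IV lies in the ring fibres of the red pulp sinuses and in vessel walls.

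The study followed gene expression in whole mouse spleen after injection of CpG oligodeoxynucleotides (CpG ODN), which engage Toll-like receptor 9 (TLR9). BALB/c mice were untreated (6 arrays), or received 400 µg of a CpG ODN mixture (1555 and 1466) into the peritoneum 0.5, 1, 3, 9, 24 or 72 h earlier (4 arrays each), or a control ODN mixture (1612 and 1471) 3 h earlier (4 arrays). Mice on a C57BL/6 background were either control mice or mice lacking tumour necrosis factor (TNF-KO), each untreated or 3 h after CpG ODN (4 arrays per group); the labels used here gave no dose for them. Every array set spleen RNA (Cy5) against one common pool, Universal Mouse Reference RNA (Cy3), and a value is the log2 of that ratio after the array's median was subtracted, so values of different genes cannot be ordered by abundance. Another label field of the C57BL/6 control CpG arrays reads untreated, and their titles were followed here. The series text describes 4 independent experiments per time point, and p-values measure the spread among these arrays. In whole tissue, fewer cells of a type and less RNA per cell cannot be told apart.

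The arrays held between 27619 and 30590 values each, and the number of arrays per group limits the precision. Tnf, the gene removed in the knockout, read between 0.58 and 0.78 on untreated C57BL/6 control arrays, between 3.16 and 4.59 on the control CpG arrays, and between -0.61 and 0.43 on the 8 TNF-KO arrays. The mean of 15 pancreatic acinar genes (digestive enzymes and related proteins) ranged from 0.26 to 6.57 across the 50 arrays. Low and high arrays occurred in the untreated BALB/c group and at 3 and 9 h, while all 4 arrays at 72 h read under 4. The mean of the spleen marker list lay between 2.66 and 4.29 on every array. The spread among arrays of a group, as a residual SD, had a median of 0.30 over all genes and 0.32 over the collagens, in BALB/c and in C57BL/6 alike.

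Col4a1 and Col4a2 encode the chains of the most widespread collagen IV, lie head to head, and are transcribed in opposite directions from a shared stretch of DNA. RefSeq promoter windows of 300 bases were found for 29 of the 37 collagen genes (32 windows, GRCm38.p6). The windows of this pair are shown because these were the basement membrane genes called higher after CpG ODN. Capitals mark the 78 bases present in both windows, chr8:11312777-11312854, each read 5′ to 3′ along the gene's own strand.
Col4a1: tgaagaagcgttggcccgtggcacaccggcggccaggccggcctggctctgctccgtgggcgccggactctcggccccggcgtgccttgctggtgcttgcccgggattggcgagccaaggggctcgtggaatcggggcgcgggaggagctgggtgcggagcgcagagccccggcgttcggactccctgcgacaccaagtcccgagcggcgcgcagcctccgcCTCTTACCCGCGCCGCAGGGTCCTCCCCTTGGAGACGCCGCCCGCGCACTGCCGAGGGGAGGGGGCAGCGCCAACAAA
Col4a2: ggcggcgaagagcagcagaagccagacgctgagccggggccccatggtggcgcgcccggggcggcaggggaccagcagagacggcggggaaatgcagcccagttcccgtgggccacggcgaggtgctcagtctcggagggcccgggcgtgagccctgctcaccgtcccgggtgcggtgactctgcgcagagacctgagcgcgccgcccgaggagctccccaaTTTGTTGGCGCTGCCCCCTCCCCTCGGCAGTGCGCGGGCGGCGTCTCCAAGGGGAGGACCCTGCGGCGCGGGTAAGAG
The Col4a1 window spans chr8:11312777-11313076 on the minus strand and the Col4a2 window chr8:11312555-11312854 on the plus strand. The letters CCAAT, searched on both strands, occurred in both windows, in 13 of the 32 collagen windows and in 37.4% of all 32851 windows. The letters GGGCGG occurred in both windows, in 22 of the 32 collagen windows and in 35.7% of all windows. CACGTG occurred in neither, in 0 of the 32 collagen windows and in 7.15% of all windows. These matches describe the letters only.

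Across the CpG ODN time course in BALB/c, collagen genes moved singly and in both directions. A gene was called changed at a Benjamini-Hochberg adjusted p under 0.05 over all genes tested in limma's moderated test. At 3 h, 6 of 37 collagens were called (5 higher, 1 lower), against 9.96% of 15263 genes (6.82% higher, 3.14% lower). At 9 h the count was 5 of 37 (2 higher, 3 lower) against 6.96% (4.19% higher, 2.77% lower). At 24 h 2 of 37 were called, both lower, against 8.45% of all genes (1.62% lower), and at 72 h 1 of 37, higher, against 10.6% (6.47% higher). At 0.5 h, 0 of 37 were called (1 at an unadjusted p under 0.05) against 0.256% of all genes, and at 1 h 0 of 37 (6 unadjusted) against 3.3%. After control ODN, 0 of 37 were called (8 unadjusted) against 1.42%. As shares, the counts at 3 and 9 h were above those of all genes by a few genes and those at 24 and 72 h were below, but these counts moved with the settings. With the set of adjacent array numbers as a block they were 2 at 3 h and 0 at 9 h, and with array weights 9 at 72 h.

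CpG ODN against control ODN at 3 h gave 7 of 37 (4 higher, 3 lower), close to the 18.3% of all genes (7.4% higher, 10.9% lower). The arrays compared shared no set of adjacent array numbers, so ODN and array set cannot be told apart there. In C57BL/6 control mice CpG ODN gave 5 of 36 (3 higher, 2 lower) against 7.72% (4.98% higher, 2.74% lower). In TNF-KO mice it gave 3 of 36 (2 higher, 1 lower) against 3.77% (3.45% higher, 0.321% lower). Untreated C57BL/6 control against untreated BALB/c gave 6 of 37 (4 higher, 2 lower) against 14.5% (8.47% higher, 6.06% lower). In all, 18 of the 37 genes were called in at least 1 of 15 comparisons (6 fibrillar, 3 basement membrane, 9 other), which makes 35 called values of 549 tested. The share of all genes called at least once was not computed, and single comparisons called up to 18.3% of all genes. Whether the count of 18 sets collagens apart from other genes was therefore not tested. The other 19 genes were never called, and their changes lay between -0.88 and 1.00. Comparisons with the same untreated arrays share those arrays' error, so their values are set side by side below and not counted as repeats.

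**Figure D1:**
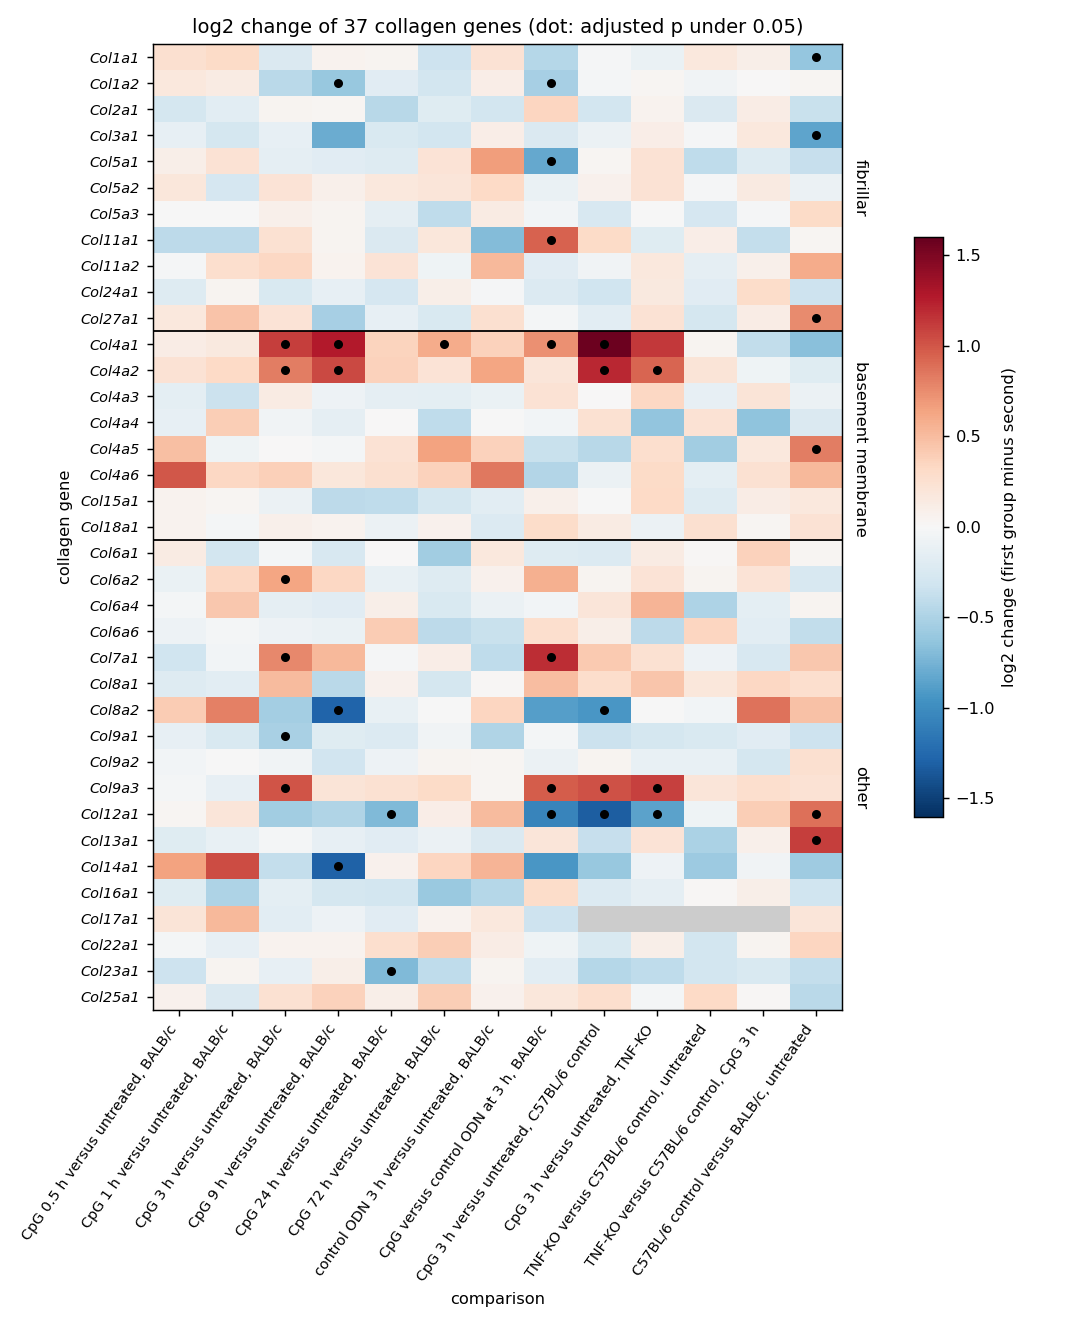
Heat map of the log2 change of 37 collagen genes (vertical axis, grouped as fibrillar, basement membrane and other) in 13 comparisons (horizontal axis); red is higher and blue lower in the first-named group, a dot marks an adjusted p under 0.05, and grey marks a value not tested. Dots gather on Col4a1, Col4a2, Col9a3 and Col12a1, and the fibrillar block holds few.

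Among basement membrane collagens, Col4a1 and Col4a2 rose after CpG ODN, at 3 and 9 h in BALB/c mice, and no other chain of the class was called at any time against untreated BALB/c. Col4a1 values in the 6 untreated BALB/c spleens had a lowest of -0.17, a median of 0.02 and a highest of 0.20. They read 1.10, 1.18, 1.23 and 1.00 at 3 h after CpG ODN. They read 1.06, 0.88, 1.45 and 1.75 at 9 h. Each of these 8 arrays was above every untreated array. The log2 change was 1.11 ± 0.18 (SE, n = 4 and 6, adjusted p = 4.4e-05, 2.15-fold) at 3 h and 1.26 ± 0.18 (n = 4 and 6, adjusted p = 7.5e-06, 2.40-fold) at 9 h. No 9 h array shared a set of adjacent array numbers with an untreated array, and with the set as a block the 9 h change was 1.45 and no longer called (adjusted p = 0.054).

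Earlier and later arrays were closer to the untreated ones. Col4a1 read 0.31, 0.27, -0.19 and 0.17 at 0.5 h and 0.23, 0.46, 0.03 and -0.03 at 1 h, in or near the untreated range. At 24 h it read 0.73, 0.68, 0.19 and -0.08, with 2 arrays high and 2 inside the untreated range. At 72 h it read 0.89, 0.95, 0.35 and 0.25, all above the highest untreated array, and the change was 0.59 ± 0.18 (n = 4 and 6, adjusted p = 0.037). That call at 72 h was lost without untreated replicates 2, 3 or 5 (0.55 to 0.57, adjusted p from 0.058 to 0.076), without 72 h replicate 1 (0.49, adjusted p = 0.13) and without 72 h replicate 2 (0.47, adjusted p = 0.16).

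Col4a2 read lowest -0.28, median 0.17 and highest 0.57 in untreated BALB/c spleens. It read 0.72, 1.19, 1.15 and 0.66 at 3 h and 0.79, 0.30, 1.80 and 1.76 at 9 h. The 3 h arrays were all above the untreated range, and at 9 h 1 array (0.30) was inside it. The log2 change was 0.82 ± 0.24 (n = 4 and 6, adjusted p = 0.02) at 3 h and 1.05 ± 0.24 (n = 4 and 6, adjusted p = 0.0034) at 9 h. The 3 h call was lost without untreated replicate 1 (0.75, adjusted p = 0.053), without 3 h replicate 2 (0.74, adjusted p = 0.084) and without 3 h replicate 3 (0.75, adjusted p = 0.081). The array set as a block ended both calls (1.13, adjusted p = 0.1 at 3 h and 1.33, adjusted p = 0.32 at 9 h).

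The median of the control ODN arrays was also above the untreated median for both genes of this pair. Col4a1 read 0.70, 0.40, 0.56 and -0.08 after control ODN, 3 of 4 arrays above the untreated range and all below the CpG 3 h arrays. Col4a2 read 1.01, 0.75, 0.97 and 0.20, overlapping the CpG 3 h arrays. Against untreated spleens control ODN gave 0.37 for Col4a1 and 0.63 for Col4a2, neither called. CpG ODN against control ODN was 0.73 ± 0.20 for Col4a1 (n = 4 and 4, adjusted p = 0.011), and Col4a2 was 0.20 (95% interval -0.34 to 0.73), not called.

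In C57BL/6 control mice the pair rose at 3 h as well. Col4a1 read -0.64, -0.69, -0.74 and -0.53 in untreated spleens and 0.83, 1.73, 1.33 and -0.23 after CpG ODN. The 4th CpG array was far below its group but still above all untreated arrays, and the change was 1.57 ± 0.40 (n = 4 and 4, adjusted p = 0.019, 2.96-fold). This call was lost without CpG replicate 2 (1.29, adjusted p = 0.075) or CpG replicate 3 (1.43, adjusted p = 0.068). Col4a2 read -0.19, 0.17, -0.30 and 0.01 untreated and 1.53, 1.45, 1.09 and 0.46 after CpG ODN, with no overlap. Its change was 1.21 ± 0.23 (n = 4 and 4, adjusted p = 0.0022, 2.31-fold) and kept its call without each array in turn. In the 3 sets of adjacent array numbers that held both groups, the difference between CpG and untreated arrays was 2.27, 2.07 and 1.52 for Col4a1 and 1.44, 1.39 and 1.36 for Col4a2.

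In TNF-KO mice, Col4a2 rose and Col4a1 was not called. Col4a1 read -0.76, -1.31, -0.26 and -0.08 in untreated TNF-KO spleens and 0.83, 1.13, 0.85 and -0.69 after CpG ODN. The 4th CpG array lay inside the untreated range, and the change was 1.13 ± 0.40 (n = 4 and 4, 95% interval 0.30 to 1.96, adjusted p = 0.16). Col4a2 read -0.02, -0.06, 0.13 and 0.43 untreated and 1.24, 0.92, 1.40 and 0.65 after CpG ODN, without overlap, a change of 0.93 ± 0.23 (n = 4 and 4, adjusted p = 0.023). That call was lost without untreated replicates 1, 2 or 3 (0.87 to 0.94, adjusted p from 0.056 to 0.081), and without CpG replicate 1 (0.87, adjusted p = 0.091) or 3 (0.82, adjusted p = 0.085). The response of TNF-KO mice minus that of control mice was -0.44 for Col4a1 (95% interval -1.61 to 0.74) and -0.28 for Col4a2 (95% interval -0.95 to 0.40), neither called. These intervals include a difference as large as the change itself for Col4a1.

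**Figure D2:**
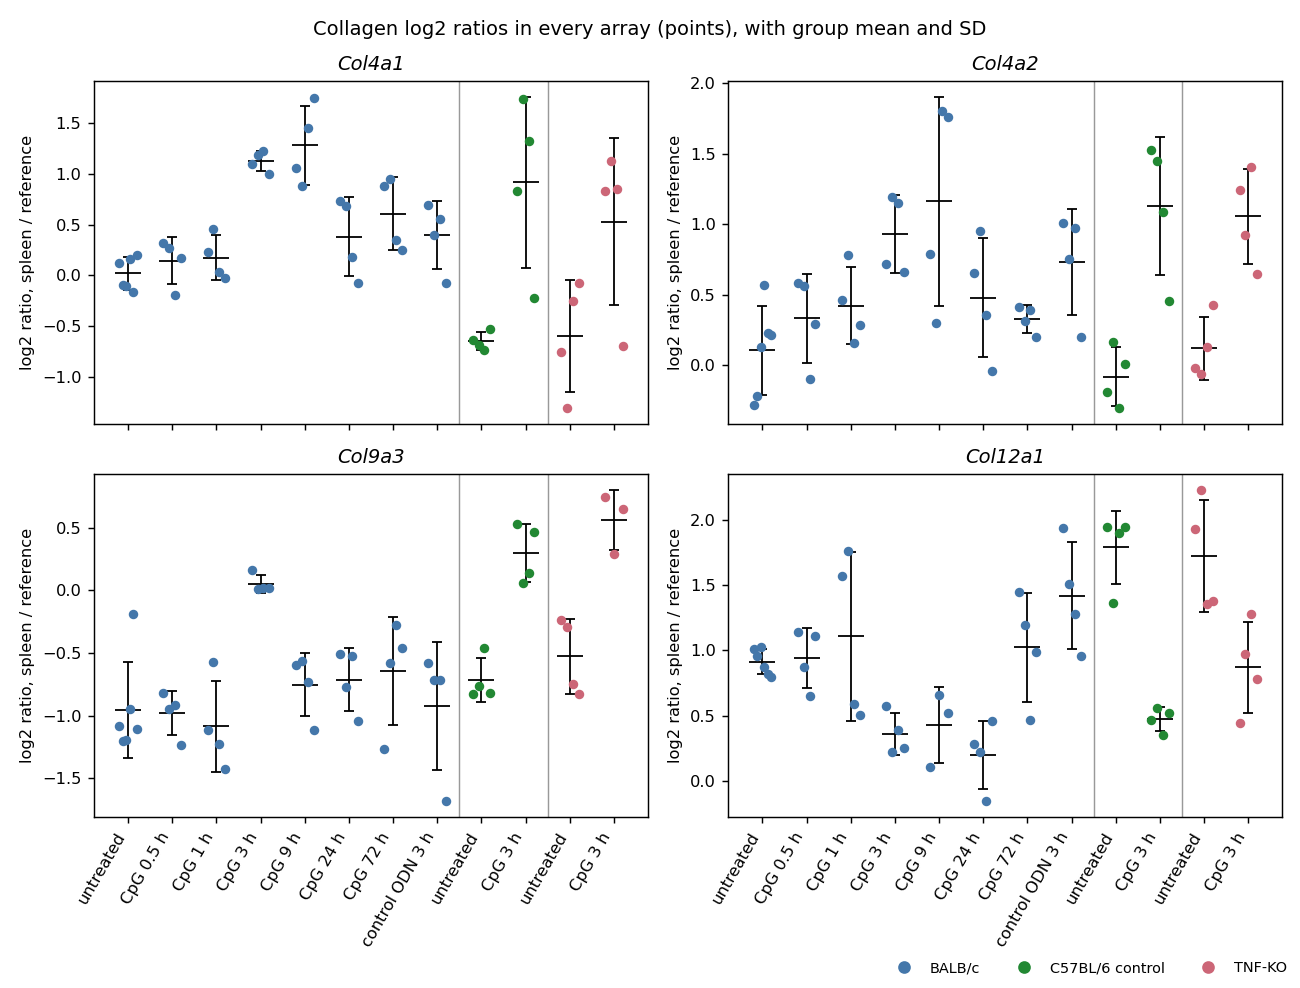
Centred log2 ratio to the reference RNA (vertical axis) on each array (points) in the 12 groups (horizontal axis) for Col4a1, Col4a2, Col9a3 and Col12a1, with bars at the mean ± SD; blue is BALB/c, green C57BL/6 control and red TNF-KO. All 4 Col4a1 arrays at 3 h and at 9 h lie above the highest untreated BALB/c array (0.20), while Col9a3 stands high at 3 h alone of the BALB/c time points.

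The remaining basement membrane collagens gave no such change. The class holds the other collagen IV chains (Col4a3 to Col4a6), found in kidney and other specialised basement membranes, and the endostatin-type collagens Col15a1 and Col18a1. Over all 8 genes of the class, Col4a1 and Col4a2 included, the median log2 change was 0.11 at 3 h and 0.01 at 9 h in BALB/c (all genes -0.03 and -0.02). It was 0.07 in C57BL/6 control mice (all genes -0.01) and 0.31 in TNF-KO mice (all genes 0.03). At 24 and 72 h the class medians were 0.12 and 0.15, next to 0.02 and 0.03 over all genes. A second Col18a1 probe was called in C57BL/6 control mice (0.73, adjusted p = 0.025), and a second Col4a5 probe was lower at 72 h (-0.84, adjusted p = 0.017), while the probes with most values gave no call for either gene there.

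Of the fibrillar collagens, Col1a2 alone was called against untreated mice after CpG ODN, at 9 h. The count was 0 of 11 at 0.5, 1, 3, 24 and 72 h, after control ODN, and in C57BL/6 control and TNF-KO mice, and 1 of 11 at 9 h. Over all genes the share called in these comparisons ran from 0.256% at 0.5 h to 10.6% at 72 h, so counts of 0 or 1 of 11 were near it. At an unadjusted p under 0.05 the counts were 0 at 0.5 h, 1 at 1, 3, 24 and 72 h, 3 at 9 h, 3 after control ODN and 0 in either C57BL/6 comparison. The class median was 0.04 at 3 h, 0.04 at 9 h (all genes -0.03 and -0.02 there), -0.18 at 24 h (all genes 0.02) and -0.20 at 72 h (all genes 0.03).

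The gene called at 9 h was Col1a2, a chain of collagen I, the main collagen of fibrous tissue. Col1a2 read lowest -2.80, median -2.67 and highest -2.50 in untreated BALB/c spleens and -3.29, -3.13, -3.38 and -3.27 at 9 h. All 4 arrays at 9 h were below the untreated range, and the gene fell by 0.61 on the log2 scale (SE 0.16, n = 4 and 6, adjusted p = 0.01). That call was lost with all arrays brought to a common spread (-0.58, adjusted p = 0.13) and with the array set as a block (-0.73, adjusted p = 0.47), the direction staying the same. At 3 h it read -3.29, -2.84, -3.33 and -2.86, a change of -0.43 that was not called. Against the control ODN arrays (-2.33, -2.83, -2.39 and -2.63) the 3 h arrays were lower without overlap, a change of -0.53 ± 0.17 (n = 4 and 4, adjusted p = 0.027). That call was lost without CpG replicates 1 or 3 or control ODN replicates 1 or 3 (-0.48 to -0.45, adjusted p from 0.086 to 0.098). Over the alternatives this difference ran from -0.24 (adjusted p = 0.64, arrays with an acinar mean under 4) to -0.99 (all arrays brought to a common spread), and it was not called in a fit of only the groups compared (-0.53, adjusted p = 0.079). In C57BL/6 mice the means of the 4 groups differed by at most 0.05.

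Col1a1, the partner chain of Col1a2, and Col3a1, the collagen of reticular fibres, were not called after CpG ODN in any group. Col1a1 group means in BALB/c ran from -2.27 at 72 h to -1.64 at 1 h, with -1.94 in untreated spleens. Col3a1 read lowest -2.76, median -2.64 and highest -1.83 in untreated BALB/c spleens and -3.22, -3.15, -2.70 and -3.99 at 9 h, 3 of 4 arrays below the untreated range, a change of -0.79 that was not called. Over the C57BL/6 groups the Col3a1 means lay between -3.41 and -3.24.

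Other fibrillar chains differed between CpG ODN and control ODN at 3 h. Col5a1, a chain of the collagen V that regulates fibre assembly, read from -2.28 to -1.47 (median -1.89, n = 4) after CpG ODN and from -1.39 to -0.95 (median -0.96, n = 4) after control ODN, without overlap. The change was -0.82 ± 0.24 (adjusted p = 0.019). The call was lost without CpG replicate 3 (-0.68, adjusted p = 0.079), CpG replicate 4 (-0.71, adjusted p = 0.072) or control ODN replicate 3 (-0.78, adjusted p = 0.055). Untreated BALB/c spleens read from -2.07 to -1.40, overlapping the CpG arrays and below all control ODN arrays. Against untreated spleens control ODN gave 0.67, and neither ODN was called. Col11a1, a cartilage collagen chain, read -1.01, -0.32, -0.59 and -1.26 after CpG ODN and -1.92, -1.57, -2.18 and -1.26 after control ODN, with overlap at 1 array of each group. The difference was 0.94 ± 0.28 (n = 4 and 4, adjusted p = 0.018), and other probes of the gene gave 0.54 and 0.00, uncalled. This call was lost without CpG replicate 2 (0.78, adjusted p = 0.072) or 3 (0.87, adjusted p = 0.054), and without control ODN replicate 1 (0.87, adjusted p = 0.055) or 3 (0.79, adjusted p = 0.085). Untreated BALB/c spleens read from -1.35 to -0.61 for Col11a1, overlapping the CpG arrays. Against them control ODN gave -0.69, and neither ODN was called.

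Among the other collagens, Col9a3 rose at 3 h in each of the 3 kinds of mice. It encodes a chain of collagen IX, a fibril-associated collagen known from cartilage. In untreated BALB/c spleens it read lowest -1.20, median -1.09 and highest -0.19, and at 3 h after CpG ODN 0.16, 0.01, 0.01 and 0.02. The 3 h arrays were above all untreated arrays, of which replicate 5 was the high one, and the change was 1.01 ± 0.21 (n = 4 and 6, adjusted p = 0.001, 2.01-fold). Control ODN arrays read -0.58, -0.71, -0.71 and -1.68, and CpG ODN against control ODN was 0.97 ± 0.23 (n = 4 and 4, adjusted p = 0.0035).

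The rise was not seen on the arrays of the other times. Col9a3 read -0.82, -0.95, -0.92 and -1.23 at 0.5 h and -1.12, -0.57, -1.23 and -1.42 at 1 h. At 9 h it read -0.60, -0.56, -0.73 and -1.12, at 24 h -0.51, -0.78, -0.53 and -1.04, and at 72 h -1.26, -0.58, -0.28 and -0.46. These values fell in or near the untreated range and below all 3 h arrays.

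On C57BL/6 control arrays Col9a3 read -0.83, -0.77, -0.46 and -0.82 untreated and 0.53, 0.06, 0.14 and 0.46 after CpG ODN. In TNF-KO mice it read -0.24, -0.30, -0.75 and -0.82 untreated and 0.75, 0.29 and 0.65 on the 3 CpG arrays with a value. The groups did not overlap in either genotype. The change was 1.02 ± 0.19 in control mice (n = 4 and 4, adjusted p = 0.002) and 1.09 ± 0.20 in TNF-KO mice (n = 3 and 4, adjusted p = 0.0029). The TNF-KO response minus the control response was 0.07 (95% interval -0.51 to 0.65), and the C57BL/6 control response minus the BALB/c response was 0.01 (95% interval -0.59 to 0.61), neither called. The Col9a3 locus overlaps Tcfl5 in RefSeq, and the strand that the probe reports was not checked here.

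Col12a1 was lower after CpG ODN in both C57BL/6 genotypes and in BALB/c at 24 h. It encodes collagen XII, which binds along collagen I fibres. In C57BL/6 control mice it read 1.94, 1.37, 1.90 and 1.94 untreated and 0.46, 0.56, 0.36 and 0.52 after CpG ODN, with a wide gap and a change of -1.31 ± 0.22 (n = 4 and 4, adjusted p = 0.00074, 2.48-fold lower). In TNF-KO mice it read 1.93, 2.23, 1.36 and 1.38 untreated and 0.45, 0.97, 1.28 and 0.78 after CpG ODN, without overlap, a change of -0.85 ± 0.22 (n = 4 and 4, adjusted p = 0.033). The TNF-KO call was lost without untreated replicate 1 (-0.78, adjusted p = 0.1) or 2 (-0.68, adjusted p = 0.13), and without CpG replicate 1 (-0.71, adjusted p = 0.15), 2 (-0.89, adjusted p = 0.057) or 4 (-0.82, adjusted p = 0.061). The response of TNF-KO mice minus that of control mice was 0.46 (95% interval -0.19 to 1.11), not called.

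In BALB/c, Col12a1 read lowest 0.80, median 0.91 and highest 1.02 in untreated spleens. It read 0.58, 0.22, 0.39 and 0.26 at 3 h, all below the untreated range, a change of -0.55 that was not called. At 24 h it read 0.28, 0.22, -0.15 and 0.46, again all below, and the change was -0.71 ± 0.21 (n = 4 and 6, adjusted p = 0.034). The 24 h call was lost without untreated replicates 1, 2 or 3 (-0.70 to -0.69, adjusted p from 0.057 to 0.059) and without 24 h replicate 1 (-0.74, adjusted p = 0.058), 2 (-0.72, adjusted p = 0.074) or 3 (-0.59, adjusted p = 0.18), and with the array set as a block (-0.32, adjusted p = 0.8). Control ODN arrays read 1.93, 1.51, 1.28 and 0.96, and against them CpG ODN at 3 h gave a change of -1.06 ± 0.24 (n = 4 and 4, adjusted p = 0.0019), with no overlap. Control ODN itself gave 0.51 against untreated spleens, not called. The C57BL/6 control response minus the BALB/c response at 3 h was -0.76 (95% interval -1.40 to -0.13), with an adjusted p of 0.6.

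Col14a1 and Col8a2 had the widest spread of group means in BALB/c, 2.34 and 2.09. Col14a1 encodes a second fibril-associated collagen, XIV, and Col8a2 a chain of the short network-forming collagen VIII known from endothelial and corneal matrix. Col14a1 read lowest 2.45, median 2.76 and highest 3.38 in untreated spleens. It read 4.34, 4.16, 3.64 and 3.38 at 1 h, at or above the top of that range, a change of 1.04 ± 0.34 that was not called. At 9 h it read 1.44, 0.75, 1.86 and 2.12, all below the untreated range, and the change was -1.29 ± 0.34 (n = 4 and 6, adjusted p = 0.013). The call was lost without 9 h replicate 2 (-1.03, adjusted p = 0.094). With the array set as a block the change turned to 0.13 (adjusted p = 0.99), and no 9 h array shared a set with an untreated array.

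Col8a2 was lower at 9 h as well. It read lowest 0.44, median 1.23 and highest 1.90 untreated, 2.74, 2.48, 1.62 and 1.15 at 1 h, and -0.40, -0.08 and 0.19 on the 3 arrays with a value at 9 h. The 9 h arrays were below all untreated arrays, with a change of -1.28 ± 0.34 (n = 3 and 6, adjusted p = 0.016), and 2 of the 4 arrays at 1 h lay inside the untreated range, where the change of 0.81 ± 0.31 was not called. Without 9 h replicate 1 the change was -1.13 (adjusted p = 0.11) and without replicate 3 -1.29 (adjusted p = 0.057). With the array set as a block it was -0.53 (adjusted p = 0.94). A second probe of Col8a2 gave -0.03 at 9 h and -0.20 in C57BL/6 control mice, so the fall rests on the probe with most values.

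On C57BL/6 control arrays Col8a2 read 1.61, 1.58, 1.64 and 1.80 untreated and 0.45, 0.52, 0.83 and 1.13 after CpG ODN, a change of -0.93 ± 0.25 (n = 4 and 4, adjusted p = 0.025). In TNF-KO mice it read 1.73, 1.86, 1.58 and 1.27 untreated and 2.33, 1.70, 1.55 and 0.83 after CpG ODN, with overlap. The response of TNF-KO minus that of control mice was 0.92 (95% interval 0.19 to 1.65, adjusted p = 0.51) and TNF-KO against control after CpG ODN was 0.87 ± 0.25 (n = 4 and 4, adjusted p = 0.14), neither called. The control call was lost without untreated replicates 1 or 4 (-0.94 and -0.88, adjusted p = 0.05 and 0.066) and without CpG replicates 1, 2 or 3 (-0.83, -0.86 and -0.96, adjusted p from 0.051 to 0.079). Col14a1 in C57BL/6 control mice read 3.13, 1.96, 1.58 and 2.39 untreated and 1.10, 1.94, 1.70 and 1.89 after CpG ODN, with overlap and no call.

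**Figure D3:**
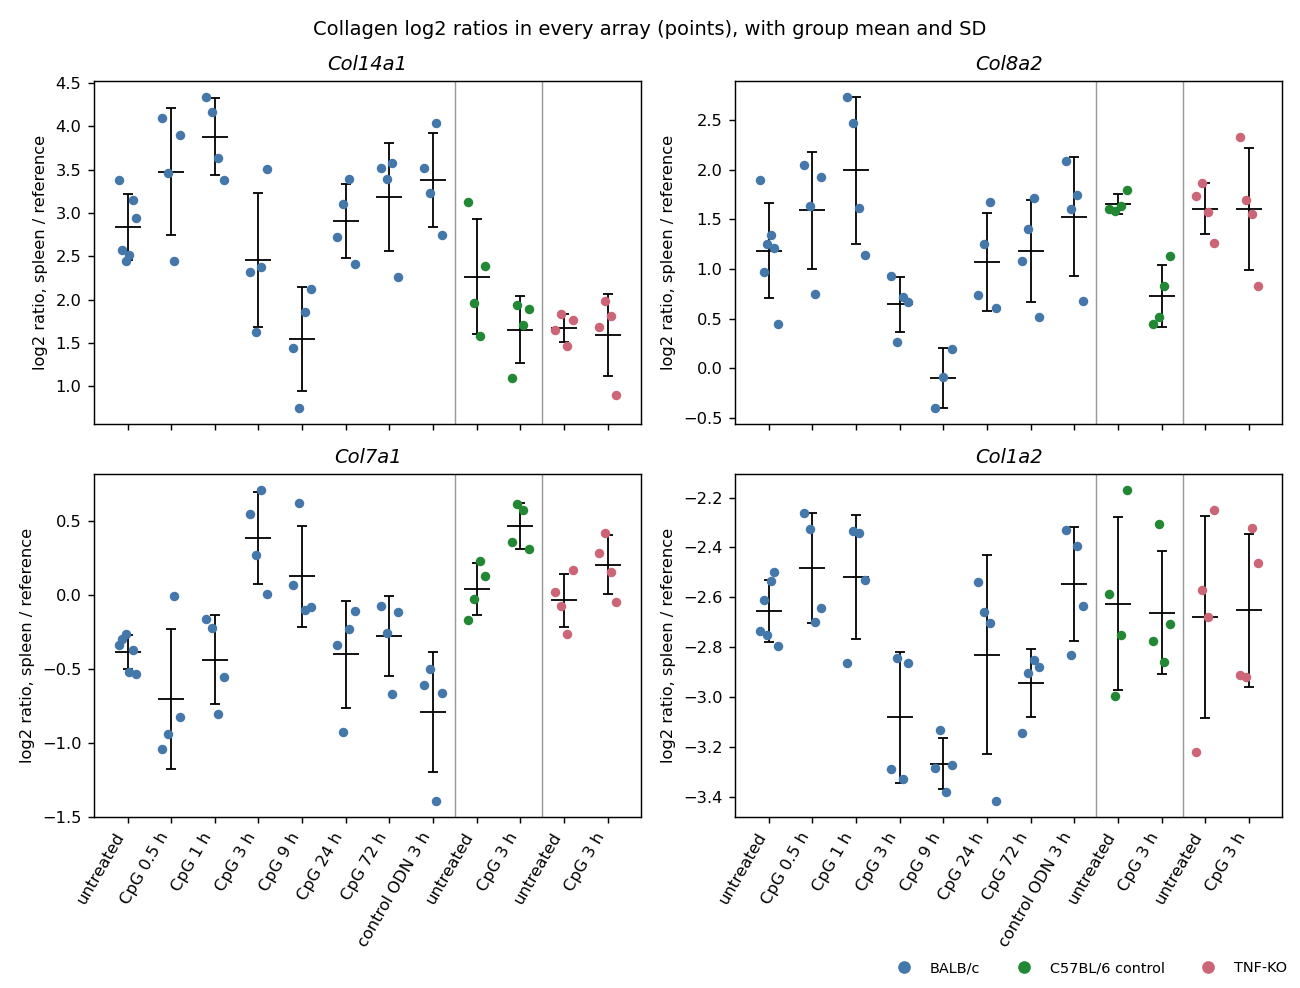
Centred log2 ratio to the reference RNA (vertical axis) on each array (points) in the 12 groups (horizontal axis) for Col14a1, Col8a2, Col7a1 and Col1a2, with bars at the mean ± SD and the same colours for BALB/c, C57BL/6 control and TNF-KO. The 9 h arrays of Col14a1, Col8a2 and Col1a2 lie below the untreated BALB/c range, a change not called with the array set as a block, while at 1 h 2 of 4 Col8a2 arrays lie inside that range.

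Col7a1, the anchoring fibril collagen of skin, read lowest -0.54, median -0.36 and highest -0.26 in untreated BALB/c spleens and 0.55, 0.27, 0.71 and 0.00 at 3 h. Control ODN arrays read -0.61, -0.50, -1.40 and -0.66. The CpG arrays were above both groups without overlap, by 0.77 ± 0.21 against untreated (n = 4 and 6, adjusted p = 0.011) and by 1.18 ± 0.23 against control ODN (n = 4 and 4, adjusted p = 0.00035). The second probe of the gene gave 0.62 and 0.64, neither called (adjusted p = 0.15 and 0.21). Against untreated spleens the call was lost without 3 h replicate 3 (0.66, adjusted p = 0.068).

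Smaller changes were called for Col6a2, Col9a1 and Col23a1. Col6a2, a chain of the beaded-filament collagen VI, rose by 0.63 ± 0.20 at 3 h (n = 4 and 6, adjusted p = 0.036), from a range of -0.97 to 0.02 untreated to -0.34 to 0.54, with overlap. Leaving out untreated replicates 1, 2, 5 or 6, or 3 h replicates 2 or 3, gave 0.49 to 0.63 and an adjusted p from 0.055 to 0.19. Col9a1, a partner of Col9a3 in collagen IX, went the other way at 3 h, from a range of -0.39 to 0.11 untreated to -0.96 to -0.50 (change -0.52 ± 0.15, n = 4 and 6, adjusted p = 0.022), and its second probe gave 0.06. This call was lost without untreated replicate 1 (-0.45, adjusted p = 0.066), 3 h replicate 1 (-0.49, adjusted p = 0.075) or 3 h replicate 3 (-0.45, adjusted p = 0.11). Col23a1, a transmembrane collagen, was lower at 24 h, with a change of -0.71 ± 0.19 (n = 4 and 6, adjusted p = 0.015), with overlap and a second probe at -0.18. Its call was lost without 24 h replicate 1 (-0.65, adjusted p = 0.057) or 3 (-0.61, adjusted p = 0.099), and with the array set as a block (-1.14, adjusted p = 0.2).

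The question of whether TNF was needed for these changes was addressed by TNF-KO and control mice of the same background. Before treatment 0 of 36 collagens differed (0 unadjusted, 0.562% of 14950 genes called), and after CpG ODN 0 of 36 (4 unadjusted, 0.361% of all genes). For the difference of the responses the count was 0 of 36 (2 unadjusted), where 4 of 14950 genes, 0.0268%, were called. Few genes of any kind passed the test in these 3 comparisons.

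Untreated spleens of C57BL/6 control and BALB/c mice differed in 6 collagens. Col13a1, a transmembrane collagen, read lowest -0.67, median -0.16 and highest 0.22 in BALB/c and 0.69, 0.94, 1.49 and 0.50 in C57BL/6, without overlap, 1.11 ± 0.24 higher (n = 4 and 6, adjusted p = 0.00096). Col12a1 was 0.88 ± 0.21 higher in C57BL/6 (n = 4 and 6, adjusted p = 0.0034), with each of the 4 arrays above the BALB/c range of 0.80 to 1.02. Col3a1 read -3.10, -3.44, -3.63 and -3.10 in C57BL/6, all below the BALB/c range, with a difference of -0.84 ± 0.28 (n = 4 and 6, adjusted p = 0.038). Col1a1 read -2.84, -2.74, -2.69 and -1.99 against a BALB/c range of -2.32 to -1.48, with overlap, a difference of -0.62 ± 0.21 (n = 4 and 6, adjusted p = 0.035). The other collagen I chain, Col1a2, differed by 0.03 (95% interval -0.32 to 0.38), not called.

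Col27a1, a fibrillar collagen of cartilage, was 0.75 ± 0.21 higher (n = 4 and 6, adjusted p = 0.0098) and Col4a5 0.82 ± 0.26 higher (n = 4 and 6, adjusted p = 0.029) in C57BL/6, each with overlap. The second probes gave 0.07 for Col27a1, -0.47 for Col4a5 and -0.11 for Col3a1. Leaving out untreated BALB/c replicates 1, 2, 3 or 4 or C57BL/6 control replicates 1 or 3 took Col4a5 to between 0.72 and 0.79 (adjusted p from 0.051 to 0.11), and the mean of its probes gave 0.17 (adjusted p = 0.54). Col3a1 was no longer called without BALB/c replicates 1 or 2 or C57BL/6 control replicates 2 or 3 (-0.81 to -0.71, adjusted p from 0.063 to 0.13), with all arrays brought to a common spread (-0.41, adjusted p = 0.44) or with the mean of its probes (-0.47, adjusted p = 0.26). Col1a1 was no longer called without BALB/c replicates 3 or 4 or C57BL/6 control replicates 1, 2 or 3 (-0.58 to -0.53, adjusted p from 0.081 to 0.12), with all arrays brought to a common spread (-0.30, adjusted p = 0.4) or in a fit of only the groups compared (-0.62, adjusted p = 0.053). The 2 strains shared no set of adjacent array numbers, so strain and array set cannot be told apart. For the response at 3 h, C57BL/6 control against BALB/c gave 0 of 36 called (1 unadjusted) next to 0.453% of all genes.

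Of 27 genes that make and modify collagen, 1 was higher and 1 lower at 3 h in BALB/c, below the 9.96% called over all genes. The higher was P4ha1, which encodes a catalytic subunit of prolyl hydroxylase, with a change of 1.23 ± 0.24 (adjusted p = 0.00041). The lower was Pcolce2, an enhancer of procollagen C-proteinase, at -0.61. At 9 h the lysyl hydroxylases Plod1 (0.87) and Plod3 (0.58) were higher and no processing gene was lower, a count close to the 6.96% of all genes. Against control ODN, where 18.3% of all genes were called, 2 were higher (P4ha1 at 1.29, and the lysyl oxidase family gene Loxl3 at 0.65) and 6 were lower, among them P4hb (-0.97) and Pcolce (-0.95). In C57BL/6 control mice, 0 of 26 were called.

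Of 35 other matrix protein genes, 2 were higher and 0 lower at 3 h in BALB/c, close to the shares of all genes (6.82% and 3.14%). These were Lamb3, a laminin chain (0.74), and Agrn, the basement membrane proteoglycan agrin (0.59 ± 0.17, adjusted p = 0.02). Agrn was also higher at 9 h (0.60), against control ODN (0.74), in C57BL/6 control mice (0.57) and in TNF-KO mice (0.63). At 9 h 3 matrix genes were lower, the small proteoglycan Ogn (-0.83), the nidogen Nid2 (-0.82) and periostin Postn (-0.61), and in C57BL/6 control mice Ogn was lower as well (-1.11). At 72 h 5 of 35 were lower and 0 higher, namely Fbln2 (-0.89), Postn (-0.65), Tnxb (-0.45), fibronectin Fn1 (-0.73) and tenascin Tnc (-0.88). Fn1 was also lower at 24 h (-1.12). Nid2, lower at 9 h, was higher at 24 h (0.75, adjusted p = 0.04). The share of all genes called was 6.96% at 9 h (2.77% lower), 8.45% at 24 h (1.62% lower) and 10.6% at 72 h. At 72 h 6.47% of all genes were higher, and only the rest of the 10.6% were lower.

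Among regulators of collagen genes, 3 were called at 1 h, 1 at 3 h, 0 at 9 and 24 h and 5 at 72 h in BALB/c. Over all genes, 3.3% were called at 1 h, 9.96% at 3 h, 6.96% at 9 h, 8.45% at 24 h and 10.6% at 72 h. At 1 h, 3 of 17 regulators were higher, namely Ccn2 (1.92 ± 0.27, adjusted p = 1.4e-05), a matricellular factor that promotes fibrosis, Skil (1.12), an inhibitor of SMAD signalling, and the growth factor Tgfb3 (1.23). At 3 h the receptor gene Tgfbr1 was lower (-0.77). At 72 h 5 of 17 regulators were lower, namely Tgfb2 (-0.88), Skil (-0.73), Smad4 (-0.69), Tgfbr2 (-1.04) and Il4 (-0.96). Skil was thus called higher at 1 h and lower at 72 h. Of 11 collagen receptor genes, 0 were called at 3 h in BALB/c, 1 at 9 h (Mrc2, an endocytic receptor, at -0.73), and 1 in C57BL/6 control mice (the integrin chain Itga11 at -0.88). In C57BL/6 control mice the regulator Tgfbr3 was lower too (-0.98), and 7.72% of all genes were called. Lair1, an inhibitory collagen receptor, was higher at 24 h (0.67) and 72 h (0.66). Against control ODN 2 of 17 regulators were higher and 1 lower, and 2 receptors were higher and 2 lower, with Lair1 at -1.18 and the integrin chain Itga1 at 0.98. Of all genes, 18.3% were called there (7.4% higher, 10.9% lower).

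Markers of other spleen cells were read on the same arrays. Of 13 endothelial genes, 0 were called at 3 h and 1, the angiopoietin receptor Tek, was lower at 9 h. Of all genes, 9.96% were called at 3 h (3.14% lower) and 6.96% at 9 h (2.77% lower). The mean of the 12 endothelial genes measured on every array was 1.68 to 2.18 in untreated BALB/c spleens, 1.49 to 2.02 at 3 h, 1.82 to 2.06 at 9 h and 1.90 to 2.72 after control ODN. At 3 h, 4 of the 13 were lower after CpG ODN than after control ODN, where 10.9% of all genes were lower. The mean of 7 general spleen markers, immune and stromal genes that check the tissue, was 3.36 to 4.29 after control ODN and 2.66 to 2.92 after CpG ODN at 3 h, without overlap, and 3.10 to 3.64 in untreated BALB/c spleens. Of the 11 genes on that list, 1 was higher at 3 h (Spic, 1.01) and 2 were lower (Slc40a1, -2.65, and Cd3g, -0.55). Of all genes, 6.82% were higher and 3.14% lower there. Against control ODN 4 of the 11 were lower (Slc40a1, -3.08, Cd79b, -1.43, Cd79a, -1.16, and Vcam1, -0.84). The list thus holds genes that were themselves called after CpG ODN. Of 11 splenic mesenchyme genes, 3 were lower at 3 h, against 3.14% of all genes. These were the transcription factors Tcf21 (-2.76 ± 0.28, adjusted p = 5.7e-09) and Tlx1 (-1.64) and the receptor Pdgfrb (-0.55). Tcf21 was also lower at 9 h (-1.35). The median change of the 11 at 3 h was -0.06, next to -0.03 over all genes. The mean of 10 of them was 1.67 to 1.97 untreated, 1.31 to 1.50 at 3 h and 1.87 to 2.59 after control ODN. In untreated C57BL/6 control spleens 10 of 13 endothelial genes were higher than in BALB/c, against 8.47% of all genes. The median difference was 0.84 (all genes 0.04), with Pecam1 at 1.05. Among smooth muscle (7 genes), mesothelial (7), adipocyte (7) and skeletal muscle (5) markers, 1 adipocyte gene was lower at 3 h (Lpl, -0.58), and at 9 h Lpl (-1.39), the mesothelial Gpm6a (-1.17) and the muscle gene Tnni2 (-0.71) were lower, with no marker of these lists higher at either time. The part of these shifts in the collagen values, the comparisons with control ODN included, was not tested.

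The acinar gene mean differed widely between arrays, and pancreas attached to the spleen holds its own collagen-making cells. It read 3.99, 0.73, 5.90, 3.36, 5.87 and 2.81 on the untreated BALB/c arrays, 5.21, 0.41, 5.56 and 0.72 at 3 h, and 0.42, 6.31, 5.07 and 0.66 at 9 h. At 72 h it read 0.43, 1.71, 3.84 and 3.93, and the median change of the 27 acinar genes was -1.26, with 0 called. The Col4a1 values at 3 h (1.10, 1.18, 1.23 and 1.00) covered both high and low acinar arrays. Over all BALB/c arrays, 0 of 37 collagens had a slope on the acinar mean that was called (4 unadjusted, smallest adjusted p = 0.36), next to 0.662% of all genes, and the slopes lay between -0.06 and 0.07 per unit. The 4 were Col23a1 (-0.06), Col9a3 (0.06), Col4a5 (0.07) and Col6a6 (0.07). The acinar mean ran from 0.41 to 6.57 over these arrays. No acinar gene (0 of 27) and no islet gene (0 of 3) was called at 3 or 9 h. In C57BL/6, 0 of 36 collagens had a called slope (1 unadjusted) next to 0.308% of all genes, with slopes between -0.10 and 0.12.

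On arrays with an acinar mean under 4 (4 untreated, 2 at 3 h and 2 at 9 h), a restriction added after the data had been seen, Col4a1 was still called at 3 h (0.99, adjusted p = 0.031) and at 9 h (1.30, adjusted p = 0.005). Col9a3 was called at 3 h (1.10, adjusted p = 0.0082) and Col4a2 at 9 h (1.20, adjusted p = 0.029). Against control ODN the calls of Col4a1 (0.61, adjusted p = 0.23) and Col9a3 (0.73, adjusted p = 0.13) were lost on these arrays. The counts against untreated spleens went from 6 to 2 at 3 h and from 5 to 2 at 9 h on these fewer arrays. With the acinar mean as a covariate in place of this restriction, each comparison kept its count within 1.5 times.

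In C57BL/6 mice the acinar mean was higher on more CpG arrays. It read 6.34, 0.26, 0.93 and 6.00 on untreated and 6.34, 3.06, 5.98 and 6.04 on CpG arrays of control mice, and 6.45, 5.36, 2.83 and 5.82 on untreated and 6.21, 6.19, 6.19 and 5.19 on CpG arrays of TNF-KO mice. The median change of the 27 acinar genes was 1.76 in control and 1.07 in TNF-KO mice, with 0 called in each. With the acinar mean as a covariate, Col4a1 (1.62, adjusted p = 0.029), Col4a2 (1.24, adjusted p = 0.005), Col9a3 (1.00, adjusted p = 0.0069), Col12a1 (-1.43, adjusted p = 0.00081) and Col8a2 (-1.01, adjusted p = 0.029) were called in control mice.

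**Figure D4:**
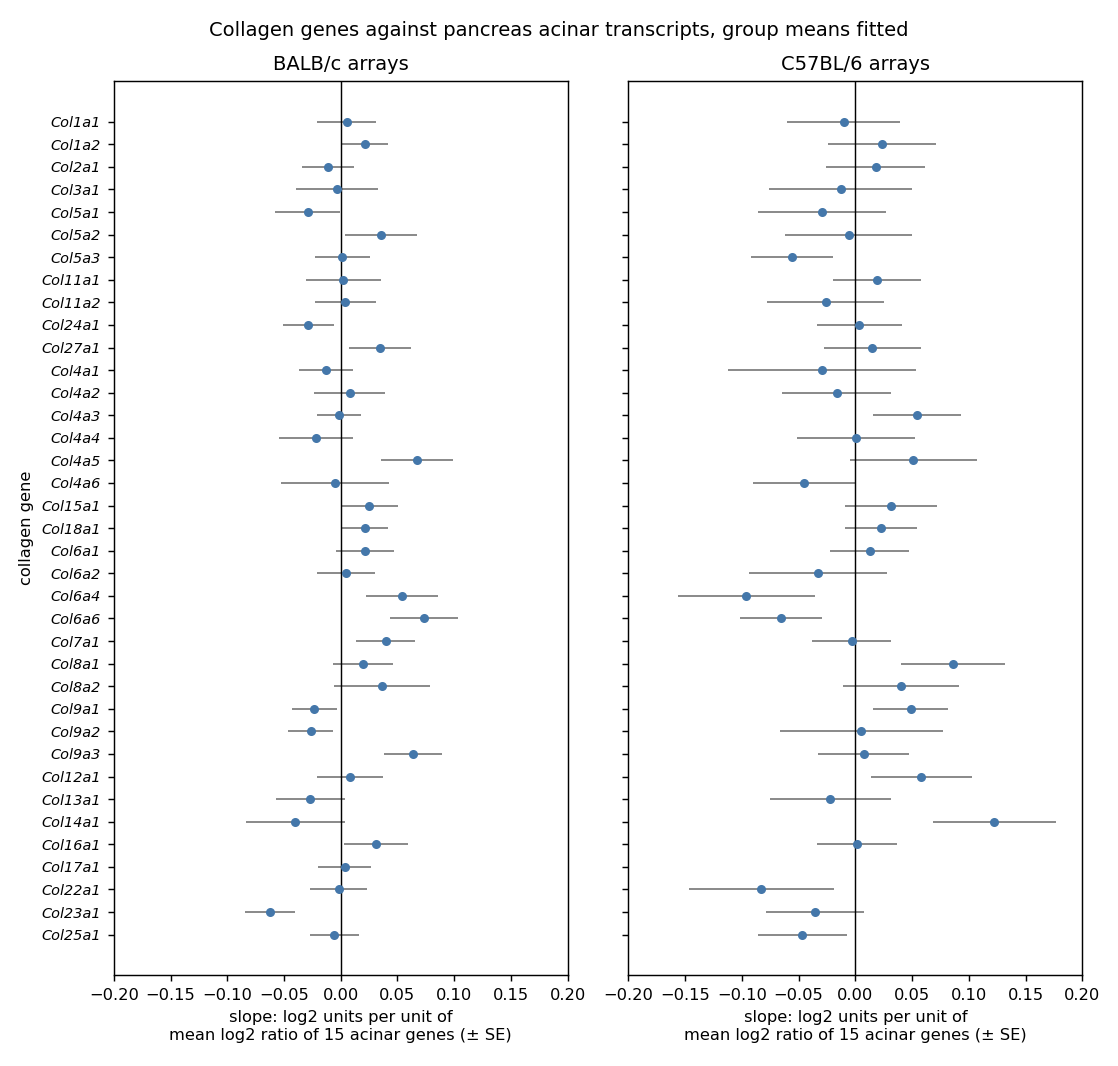
Slope of each collagen gene's log2 ratio per unit of the acinar gene mean (horizontal axis, point ± SE) for the genes on the vertical axis, in BALB/c and in C57BL/6 arrays. The slopes lie on both sides of 0, between -0.06 and 0.07 in BALB/c and between -0.10 and 0.12 in C57BL/6, and none was called.

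Arrays carried numbers that fell into 11 sets of adjacent numbers, and the 9, 24 and 72 h and control ODN arrays shared no set with an untreated array. The control ODN arrays shared no set with the CpG 3 h arrays either. Within the set that held 3 h replicates 3 and 4 and 1 untreated array, the difference was 1.20 for Col4a1, 1.12 for Col4a2, 1.22 for Col9a3, 0.65 for Col7a1 and -0.63 for Col12a1. With the set as a block, Col4a1 (1.30, adjusted p = 0.005) and Col9a3 (1.30, adjusted p = 0.017) were called at 3 h, and Col4a2 (1.13, adjusted p = 0.1), Col7a1 (0.93, adjusted p = 0.14), Col6a2 (0.54, adjusted p = 0.46) and Col9a1 (-0.63, adjusted p = 0.18) were not.

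At 9 and 24 h no collagen call held with the block. At 1 h the block called 2 collagens that were uncalled without it. For 72 h, control ODN and the strains the block could not be fitted.

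All 5 calls in C57BL/6 control mice held with the block, Col4a1 at 1.74 (adjusted p = 0.012), Col4a2 at 1.25 (adjusted p = 0.0067), Col9a3 at 0.99 (adjusted p = 0.0084), Col12a1 at -1.20 (adjusted p = 0.0059) and Col8a2 at -0.89 (adjusted p = 0.037). In the 3 sets with both groups, Col12a1 differed by -1.38, -1.55 and -0.90, Col9a3 by 0.88, 0.60 and 1.29 and Col8a2 by -1.28, -0.81 and -1.14. In TNF-KO mice only Col9a3 was called with the block (1.12, adjusted p = 0.02), while Col4a2 was 0.83 (adjusted p = 0.15) and Col12a1 -0.66 (adjusted p = 0.24). The 2 sets with both TNF-KO groups gave 1.03 and 0.22 for Col4a2, -0.23 and -0.59 for Col12a1, 1.04 and 1.47 for Col9a3, and 1.24 and -0.61 for Col4a1.

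**Figure D5:**
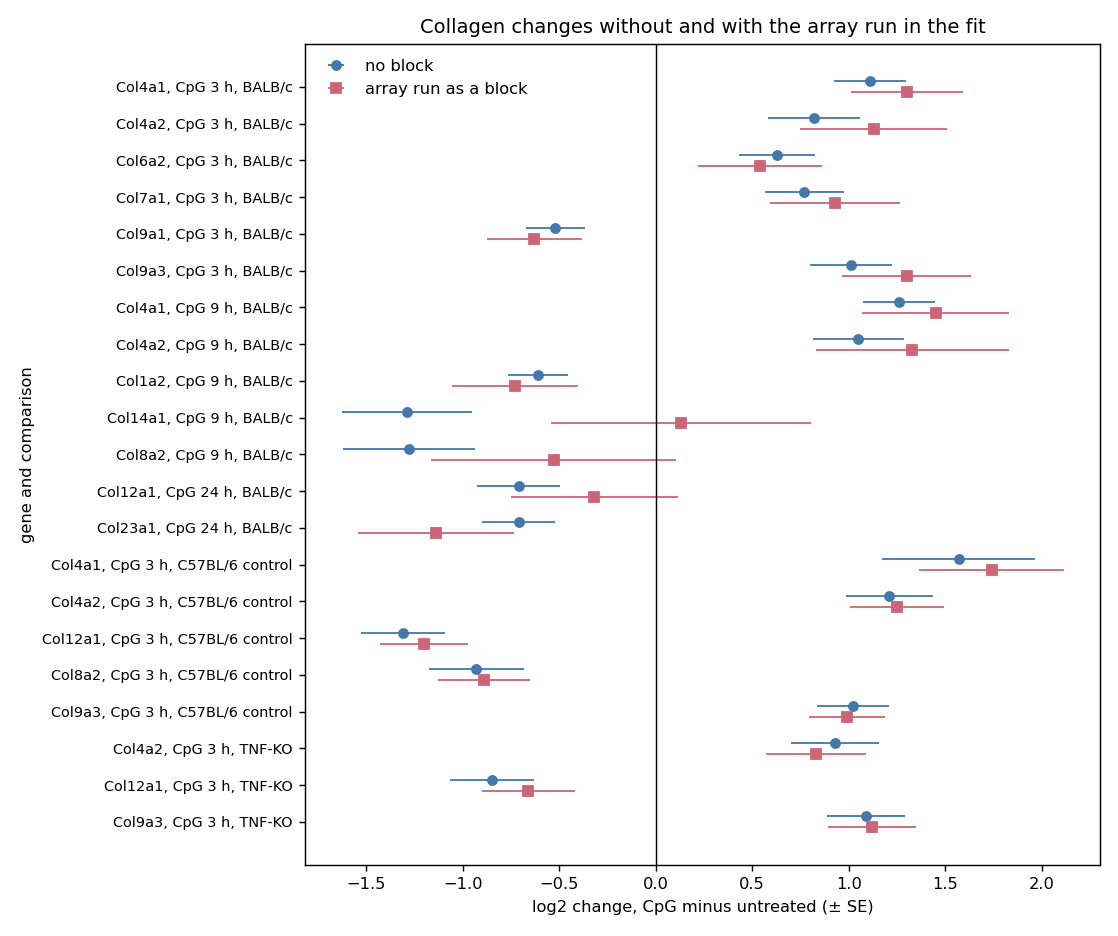
Log2 change ± SE (horizontal axis) of the 21 called changes for which the array set could be fitted (vertical axis), without and with the set of adjacent array numbers as a block. Values of C57BL/6 control mice hardly move, while Col14a1 at 9 h goes from -1.29 to 0.13.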

How the data were processed

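Spleen RNA and the reference RNA were measured on 50 two-colour arrays in 12 groups. The authors deposited 1 table of log2 ratios (Cy5 over Cy3); per the series' own text, background was subtracted, poor spots and spots with both signals under 100 were removed, and lowess normalization was applied. Lowess and the median centring added here remove any shift shared by most genes, and signal over background is not known from this table. Gene symbols came from the platform annotation, and a gene was measured by the probe with most values. Genes with values on over 70% of the arrays of a fit were tested with limma 3.58.1's moderated test in R 4.3.3, separately in BALB/c (34 arrays) and C57BL/6 (16), and on all 50 for strain, with Benjamini-Hochberg adjustment; the routine was checked against limma and on simulated data. Figures used matplotlib 3.10.9. Genes named were those called at least once plus Col1a1, Col1a2, Col3a1, Col4a1 and Col4a2, with array values for 12 of them. For the other lists the plan was to name up to 3 called genes per comparison with the smallest p. That plan was not followed throughout. Some of these genes are not named, and other called members were chosen after their values were seen. Lists were collagen processing, matrix proteins, receptors, regulators, endothelium, splenic mesenchyme, smooth muscle, mesothelium, adipocyte, skeletal muscle, spleen, pancreatic acinar and islet genes. Members and lists were chosen with earlier results of these data known. Alternatives covered centring, scaling, probes, missing values, array weights, array sets, the acinar mean, the replicate number and leaving out arrays.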

Additional observations from a re-analysis of the deposited data

Results flagged for a closer look

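In the 12 collagens given array by array, 141 groups of 4 or 6 arrays were screened for an array far from the rest of its group. Of these, 8 held one, close to the 1 in 20 that chance would give with independent groups of normally spread values. The 12 genes were read on the same arrays, so the groups are not independent. Col4a1 read -0.69 on the 4th CpG array of TNF-KO mice, where the other 3 read 0.83 to 1.13. Col12a1 read 1.37 on the 2nd untreated C57BL/6 control array, where the others read 1.90 to 1.94. Col14a1 read 2.26 on the 4th array at 72 h, where the others read 3.39 to 3.57. Col9a3 read 0.16 on the 1st array at 3 h in BALB/c (others 0.01 to 0.02), -1.68 on the 4th control ODN array (others -0.71 to -0.58) and -0.19 on the 5th untreated BALB/c array (others -1.20 to -0.95). Col11a1 read -1.56 on the 3rd array at 72 h (others -0.68 to -0.54) and -1.33 on the 3rd untreated TNF-KO array (others -0.81 to -0.71).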

How the results depend on the processing

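Of the alternative values computed for the 35 called changes, 585 kept direction and call, 120 kept direction and lost the call, and 1 reversed (Col14a1 at 9 h, 0.13 with the array set as a block; the cause was not tested). Col4a1 at 3 h in BALB/c (0.99 to 1.30), Col9a3 at 3 h in BALB/c (0.96 to 1.30), C57BL/6 control (0.94 to 1.10) and TNF-KO mice (0.99 to 1.23), Col12a1 (-1.45 to -1.18) and Col4a2 (1.08 to 1.43) in C57BL/6 control mice and Col7a1 against control ODN (0.97 to 1.30) kept their calls in all alternatives run. So did Col12a1 against control ODN (-1.21 to -0.89). Between untreated strains Col12a1 (0.68 to 1.02), Col13a1 (0.92 to 1.25) and Col27a1 (0.49 to 0.87) did as well. For control ODN and the strains, the alternatives run did not include the array set as a block. With the array set as a block the number of collagens called was 2 at 1 h, 2 at 3 h, 0 at 9 h, 0 at 24 h and 1 in TNF-KO mice, and within the first array set it was 4 at 1 h. On the fewer arrays with an acinar mean under 4, an alternative added after seeing the data, it was 1 at 0.5 h, 2 at 3 h, 2 at 9 h, 0 at 24 h and 2 against control ODN. Array weights gave 1 at 1 h, 9 at 72 h, 3 after control ODN and 1 for TNF-KO against control after CpG ODN, and fitting only the groups compared gave 1 at 1 h. Genes measured on every array gave 1 at 24 h, the mean of a gene's probes 1 at 24 h and 3 at 72 h, and every probe tested 2 at 72 h. The cause of these differences was not tested for any of the settings. Whether replicate numbers pair the arrays was not settled. The median correlation of same-numbered deviations was 0.04 in BALB/c (other pairs -0.03) and 0.10 in C57BL/6 (other pairs -0.05). It was over 0.1 in 45 of 112 same-numbered pairs in BALB/c and 12 of 24 in C57BL/6. In BALB/c 13 of 34 arrays were closest to their own number, and in C57BL/6 7 of 16. With the number as a block 4 collagens were called at 3 h, 5 at 9 h, 5 in C57BL/6 control mice and 2 in TNF-KO mice. Leaving out each array in turn gave 2 to 6 calls at 3 h (2 without 3 h replicate 3, 3 without untreated replicate 1), 4 to 5 at 9 h, 0 to 3 at 24 h (0 without 24 h replicates 1 or 3, 1 without 24 h replicate 2 or untreated replicates 1, 2 or 3), 0 to 3 at 72 h (0 without 72 h replicates 1 or 2 or untreated replicate 3, 3 without 72 h replicate 4), 0 to 4 after control ODN (4 without its replicate 4), 4 to 11 against control ODN (4 without CpG or control ODN replicate 3, 11 without control ODN replicate 4), 3 to 5 in C57BL/6 control mice (3 without CpG replicates 2 or 3), 1 to 3 in TNF-KO mice (1 without CpG replicate 1 or untreated replicate 2), 0 to 1 for TNF-KO against control after CpG ODN (1 without TNF-KO replicate 4) and 3 to 6 between untreated strains (3 without C57BL/6 control replicate 3). A fit of only the groups compared was not run for the difference of TNF-KO and control responses.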
